A study of Mus musculus with 8 samples.

Results

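Enzymes that remove superoxide and peroxides were followed in mouse lung after mepenzolate. The 10 listed genes are the superoxide dismutases Sod1, Sod2 and Sod3, catalase (Cat), the glutathione peroxidases Gpx1, Gpx3 and Gpx4, and the peroxiredoxins Prdx1, Prdx5 and Prdx6. A listed gene was used where the series' annotation gave it a probe with exactly 1 gene symbol, and its brightest probe by the mean over all arrays was taken. This gave 8 of the 10 listed genes, among 19937 genes in all, and Prdx5 and Prdx6 were not analysed here. The measured lungs came from mice given mepenzolate, a muscarinic receptor blocker, through the trachea, or vehicle. They were taken 25 h or 7 h after dosing, which made 4 groups (mepenzolate 25 h, vehicle 25 h, mepenzolate 7 h and vehicle 7 h) of 2 arrays each. All groups carry the same protocol in the labels, with chloral hydrate anaesthesia at 500 mg/kg. The labels give neither a mepenzolate dose, a strain, a sex and an age, nor an injury or disease induction, and they leave unsaid whether each array had its own animal. The p-values hence rest on array-to-array spread alone, part of which may be technical.

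Superoxide is a by-product of respiration and the product of the NADPH oxidases of inflammatory cells. Superoxide dismutases turn it into hydrogen peroxide and oxygen. Catalase breaks hydrogen peroxide down directly, whereas glutathione peroxidases use glutathione and peroxiredoxins mostly use thioredoxin to reduce it. The airways and alveoli meet more oxygen than most tissues, and these enzymes form a main part of their defence. By its design text, the study looked for the way in which the drug reduces oxidative stress and inflammation, and these transcripts belong to the first of these.

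Levels are log2 values deposited by the authors, on which 1 unit is a doubling, and differences are mepenzolate minus vehicle or 25 h minus 7 h with the standard error of the limma fit. Array medians lay between 6.70 and 6.77. The lung markers Sftpc (13.49 to 13.56), Sftpb (12.76 to 12.91), Scgb1a1 (13.23 to 13.49), Ager (12.30 to 12.49) and Foxj1 (7.82 to 8.21) were all present on every array. The second mepenzolate array at 7 h stood apart. Relative to the mean of all 8 arrays, its 10 club and secretory cell markers averaged -0.67 (-0.05 to 0.35 on the others), its 8 ciliated cell markers -0.44 (-0.09 to 0.23 on the others) and its 3 tested liver markers 1.20 (-0.27 to -0.11 on the others). In whole lung, fewer cells of a type and less RNA per cell cannot be told apart.

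All 8 measured enzymes were bright genes. Their mean levels ranked between percentiles 96.1 and 99.4 of the 19937 genes, and all 8 passed the filter on dim genes. From the lowest to the highest of the 8 arrays, a member spanned 0.185 (Gpx3) to 0.51 (Prdx1), with a median of 0.28, against a median of 0.31 over the 14953 genes tested. The residual standard deviation within groups had a median of 0.084 for the members and 0.10 for all genes tested. Prdx1 was the exception in range, at percentile 86.2 of all genes tested, although its residual standard deviation (0.078) was at percentile 32.7.

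**Figure D1:**
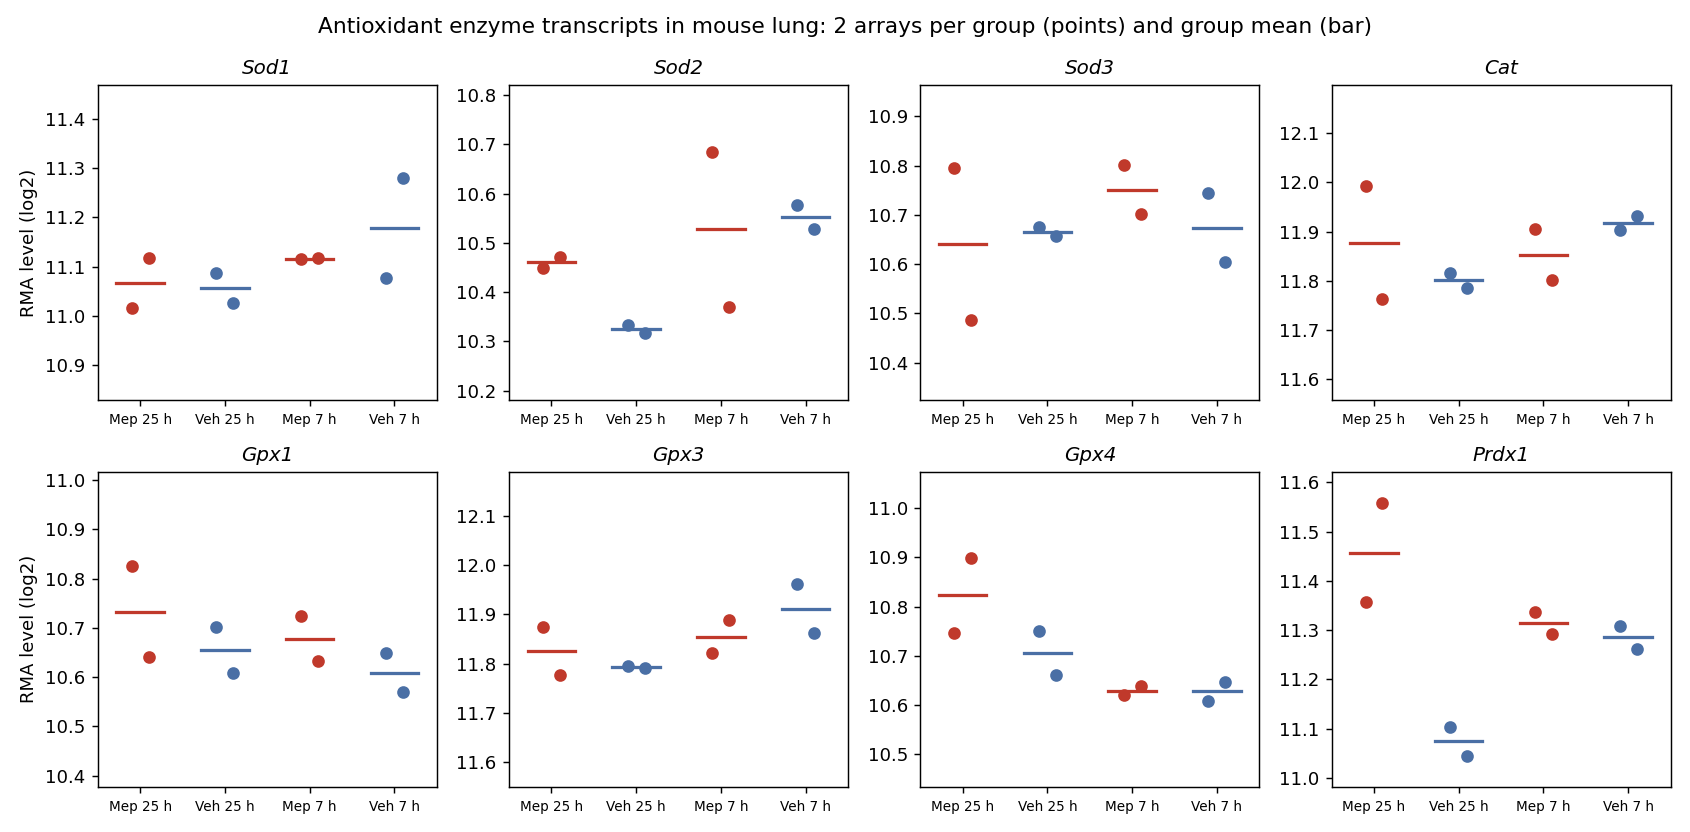
RMA level (log2, vertical axis) of the 8 measured enzymes in each array, by group along the horizontal axis. Points are arrays (red mepenzolate, blue vehicle), bars are group means, and all panels span the same number of log2 units. Prdx1 stands out at 25 h, with 11.36 and 11.56 in mepenzolate lungs and 11.10 and 11.04 in vehicle lungs.

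At 25 h, the time whose gene sets the design text names, 0 of the 8 enzymes passed the test, as did 0% of all 14953 genes (limma, adjusted p under 0.05, smallest adjusted p = 0.979). At an unadjusted p under 0.05 there were 599 genes, among them 1 member, Prdx1. Of the members 7 stood higher and 1 lower in mepenzolate lungs, with a median difference of 0.08, against -0.02 for all genes, of which 41.3% were positive. Arrays did not overlap between the groups for 2 members, Prdx1 and Sod2, both higher in mepenzolate lungs, and for 0 members in the lower direction. Over all genes tested, 14.2% were higher and 22.4% lower without overlap.

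Prdx1, a cytosolic peroxiredoxin that reduces hydrogen peroxide with electrons from thioredoxin, showed the largest difference of the 8 at 25 h. Its level was 11.36 and 11.56 in mepenzolate lungs, against 11.10 and 11.04 in vehicle lungs. Both mepenzolate arrays lay above both vehicle arrays, a difference of 0.38 ± 0.09 or 1.30-fold (95% interval 1.13 to 1.50). The unadjusted limma p was 0.00258, the 27th smallest of 14953 genes, and the adjusted limma p was 0.979, so the difference did not pass.

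At 7 h Prdx1 was at 11.34 and 11.29 in mepenzolate lungs and at 11.31 and 11.26 in vehicle lungs. These groups overlapped (0.03 ± 0.09, limma adjusted p = 1). The order of the group means was mepenzolate 25 h (11.46), mepenzolate 7 h (11.31), vehicle 7 h (11.28) and vehicle 25 h (11.07). The middle pair did not differ beyond its spread. With this brightest probe the 25 h groups lay outside the 7 h arrays, mepenzolate above and vehicle below. The effect at 25 h minus that at 7 h was 0.35 ± 0.13 (limma adjusted p = 1.00), and 0% of all genes passed for that difference, with 400 genes, Prdx1 among them, at an unadjusted limma p under 0.05.

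The annotation assigns a second, dimmer probe to Prdx1, and it gave a smaller difference. It read 10.87 and 11.09 in mepenzolate lungs and 10.70 and 10.78 in vehicle lungs at 25 h. The arrays again did not overlap, with a difference of 0.24 ± 0.11 (limma unadjusted p = 0.0545, adjusted p = 0.979). For the difference between times this probe had an unadjusted limma p of 0.218. At 7 h it read 10.98 and 10.78 in mepenzolate lungs, against 10.90 and 10.78 in vehicle lungs. With this probe neither 25 h group lay wholly outside the 7 h arrays. Across the 8 arrays the probes had a Pearson r of 0.856, as a description of 2 probes that share arrays. Probe numbers of the other members run in the order of chromosomes 10, 11, 16, 17, 2, 5 and 9. By its number the brighter Prdx1 probe falls beside that of Sod1 on chromosome 16. The dimmer one falls between Cat on chromosome 2 and Sod3 on chromosome 5, and RefSeq places Prdx1 on chromosome 4. Where either probe aligns was not tested. RefSeq lists a pseudogene of Prdx1, and its share in either probe's signal cannot be told apart here.

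Some cell marker lists also stood apart between the groups at 25 h, which is described here without a test. The 7 tested alveolar macrophage markers averaged -0.048 and -0.015 in mepenzolate lungs and 0.007 and 0.070 in vehicle lungs, relative to all arrays, with 3 of 7 higher in mepenzolate lungs. The 8 endothelial markers averaged -0.127 and 0.015 in mepenzolate lungs and 0.033 and 0.109 in vehicle lungs, with 1 of 8 higher. Both lists were thus lower without overlap, though the macrophage markers went both ways. Of single genes tested, 22.4% were lower and 14.2% higher without overlap at 25 h. The 4 tested of 8 adipocyte markers were higher, with 0.622 and -0.008 in mepenzolate lungs and -0.091 and -0.076 in vehicle lungs. Club and secretory cell markers overlapped, at -0.008 and 0.001 in mepenzolate lungs against 0.091 and -0.048 in vehicle lungs. The part of any of these in the Prdx1 difference was not tested.

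Prdx1 is known as a target of NRF2, the transcription factor that binds the antioxidant response element. The RefSeq promoter windows (GRCm38.p6, from 250 bases before the start site to 50 after it) were therefore searched on both strands for its core TGACNNNGC. The same search covered the AP-1 site TGACTCA, which can overlap it, the E-box CACGTG bound by clock factors, the GC box GGGCGG and the TATA box TATAAA. Of the 8 measured enzymes 7 had a window. The antioxidant response core was in the windows of 2 genes, Prdx1 and Sod1, and in 14.0% of the 27025 genes with a window. The lines that follow give the 250 bases before the start site of these 2 genes and, for contrast, of Sod2, which has GC boxes only. Capitals mark the matched motifs.
Prdx1 (chr4:116685349-116685598, plus strand): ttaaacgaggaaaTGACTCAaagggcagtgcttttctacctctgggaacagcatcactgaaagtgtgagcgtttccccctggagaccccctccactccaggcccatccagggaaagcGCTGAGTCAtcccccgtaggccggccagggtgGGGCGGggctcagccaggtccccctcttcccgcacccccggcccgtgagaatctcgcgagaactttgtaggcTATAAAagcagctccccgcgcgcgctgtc
Sod1 (chr16:90220512-90220761, plus strand): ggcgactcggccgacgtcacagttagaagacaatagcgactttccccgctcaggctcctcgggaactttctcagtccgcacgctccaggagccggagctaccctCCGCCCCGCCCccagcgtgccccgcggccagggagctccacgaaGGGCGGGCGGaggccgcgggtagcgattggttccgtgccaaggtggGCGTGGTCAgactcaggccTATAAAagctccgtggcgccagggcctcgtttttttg
Sod2 (chr17:13007589-13007838, plus strand): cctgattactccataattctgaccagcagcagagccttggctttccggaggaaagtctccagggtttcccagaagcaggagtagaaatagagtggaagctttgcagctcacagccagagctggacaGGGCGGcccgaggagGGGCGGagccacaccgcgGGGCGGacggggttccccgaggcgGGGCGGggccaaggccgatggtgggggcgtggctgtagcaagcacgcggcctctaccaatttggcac

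In Prdx1 the core lies on the minus strand with its first window base at -133, and it overlaps an AP-1 site. A second AP-1 site starts at -237. AP-1 sites were found in 1 of the 7 enzymes and in 5.9% of all genes with a window. In Sod1 the core starts at -56, also on the minus strand, without an AP-1 site. TATA boxes were found in the same 2 genes (15.7% of all genes), GC boxes in all 7 (38.2%) and E-boxes in 0 (8.1%). Overlapping GC boxes in Sod1 print as 1 longer capital run. A match describes the letters in the window and is no evidence of binding. The 2 genes with the core had unlike values at 25 h, 0.38 ± 0.09 for Prdx1 and 0.01 ± 0.09 for Sod1, a contrast between genes that was not tested.

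Sod1, the copper-zinc superoxide dismutase of the cytosol, stayed close to 1 level. At 25 h it was at 11.02 and 11.12 in mepenzolate lungs and at 11.09 and 11.03 in vehicle lungs. At 7 h it was at 11.12 on both mepenzolate arrays and at 11.08 and 11.28 in vehicle lungs. The groups overlapped at both times. The 25 h difference of 0.01 ± 0.09 has a 95% interval of 0.871-fold to 1.17-fold, and that at 7 h was -0.06 ± 0.09 (limma adjusted p = 0.992 and 1). The 25 h sign turned under quantile normalization (-0.01) and with 1 array left out (-0.039 to 0.061), and the 7 h value ran from -0.165 to 0.041 with 1 array left out.

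Sod2, the manganese enzyme of the mitochondrial matrix and a known target of NF-kappaB in inflammation, had 10.45 and 10.47 in mepenzolate lungs at 25 h, against 10.33 and 10.32 in vehicle lungs. Here both groups had little spread and did not overlap, a difference of 0.13 ± 0.11 (limma adjusted p = 0.979). The standard error exceeds the gaps between replicates because it uses the spread of all 4 groups. At 7 h it had 10.68 and 10.37 in mepenzolate lungs, the widest gap between replicates of any member, and 10.58 and 10.53 in vehicle lungs. The difference was -0.02 ± 0.11 (limma adjusted p = 1), with -0.18 when mepenzolate array 1 was left out and 0.13 when array 2 was, the one with low airway and high liver markers.

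Sod3, the secreted enzyme that binds the matrix around airways and vessels, was at 10.80 and 10.49 in mepenzolate lungs at 25 h, against 10.68 and 10.66 in vehicle lungs. The mepenzolate arrays lay on both sides of the vehicle arrays. The difference was -0.02 ± 0.11 (limma adjusted p = 0.991), with -0.18 without the first and 0.13 without the second mepenzolate array, and it turned to 0.0033 under median centring. At 7 h Sod3 was at 10.80 and 10.70 in mepenzolate lungs and 10.74 and 10.60 in vehicle lungs, which overlap (0.08 ± 0.11, limma adjusted p = 1). With 1 array left out the 7 h difference ran from 0.0060 (without the second vehicle array) to 0.15 (without the first), and it was 0.13 without the second mepenzolate array. Smooth muscle markers had a like order on the 25 h mepenzolate arrays, at 0.11 on the first and -0.13 on the second. The ciliated, alveolar type 2, fibroblast, cardiac muscle and adipocyte lists had that order too, and the other cell lists the reverse. Smooth muscle markers were highest on the second 7 h vehicle array (0.145), where Sod3 was at 10.60. The part of any of these lists was not tested.

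Catalase, the peroxisomal enzyme, read 11.99 and 11.76 in mepenzolate lungs and 11.82 and 11.79 in vehicle lungs at 25 h. The first mepenzolate array was the highest of all 8 and the second the lowest. The difference of 0.08 ± 0.09 (limma adjusted p = 0.979) was 0.19 without the second and -0.04 without the first of these. At 7 h the levels were 11.91 and 11.80 in mepenzolate lungs and 11.90 and 11.93 in vehicle lungs, a difference of -0.06 ± 0.09 (limma adjusted p = 1). It was -0.12 when mepenzolate array 1 was left out at 7 h and -0.01 when array 2 was. The adipocyte (0.622), ciliated cell (0.227) and fibroblast (0.126) markers were also highest on the first 25 h mepenzolate array, and the other cell lists were highest elsewhere. Adipocyte markers were lowest on the first 7 h vehicle array (-0.63), where Cat was at 11.90. The part of any of these lists was not tested.

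The glutathione peroxidases measured are selenoproteins with different places of work. Gpx1, the main cytosolic form, had 10.82 and 10.64 in mepenzolate lungs at 25 h, against 10.70 and 10.61 in vehicle lungs. At 7 h it had 10.72 and 10.63 in mepenzolate lungs and 10.65 and 10.57 in vehicle lungs. Its means were thus slightly higher after mepenzolate at both times, by 0.08 ± 0.09 and 0.07 ± 0.09, with arrays that overlapped each time. Averaged over both times the difference was 0.07 ± 0.07 (limma adjusted p = 0.999, exact permutation p = 0.2 with 4 arrays against 4). At 25 h it was -0.01 without mepenzolate array 1 and 0.17 without mepenzolate array 2, and at 7 h it was 0.024 without mepenzolate array 1 and 0.12 without mepenzolate array 2.

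Gpx3, the form secreted into plasma and airway lining fluid, had the least spread of the 8. It stood at 11.88 and 11.78 in mepenzolate lungs and 11.80 and 11.79 in vehicle lungs at 25 h. At 7 h it stood at 11.82 and 11.89 in mepenzolate lungs and 11.96 and 11.86 in vehicle lungs. The groups overlapped at both times, with differences of 0.03 ± 0.08 at 25 h and -0.06 ± 0.08 at 7 h (limma adjusted p = 0.986 and 1). The 25 h interval runs from 0.900-fold to 1.16-fold. With 1 array left out the 7 h value ran from -0.11 to -0.0074, and it was -0.09 without the second mepenzolate array. At 25 h it ran from -0.016 to 0.081.

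Gpx4, which reduces lipid hydroperoxides in membranes and guards cells against ferroptosis, had 10.75 and 10.90 in mepenzolate lungs at 25 h, against 10.75 and 10.66 in vehicle lungs. The lower mepenzolate array and the higher vehicle array were level. At 7 h all 4 arrays were close, with 10.62 and 10.64 in mepenzolate lungs and 10.61 and 10.65 in vehicle lungs. The mepenzolate difference was 0.12 ± 0.08 at 25 h and 0.0013 ± 0.08 at 7 h (limma adjusted p = 0.979 and 1). The 25 h value was 0.04 when mepenzolate array 2 was left out and 0.19 when array 1 was. The dimmer of its 2 probes gave -0.03 at both times, so the direction depended on the probe. Quantile normalization and median centring also turned the 7 h sign (-0.0055 and -0.0046), as did leaving out the second mepenzolate array (-0.0072). RefSeq lists pseudogenes of Gpx4 too, whose share in the signal cannot be told apart.

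**Figure D2:**
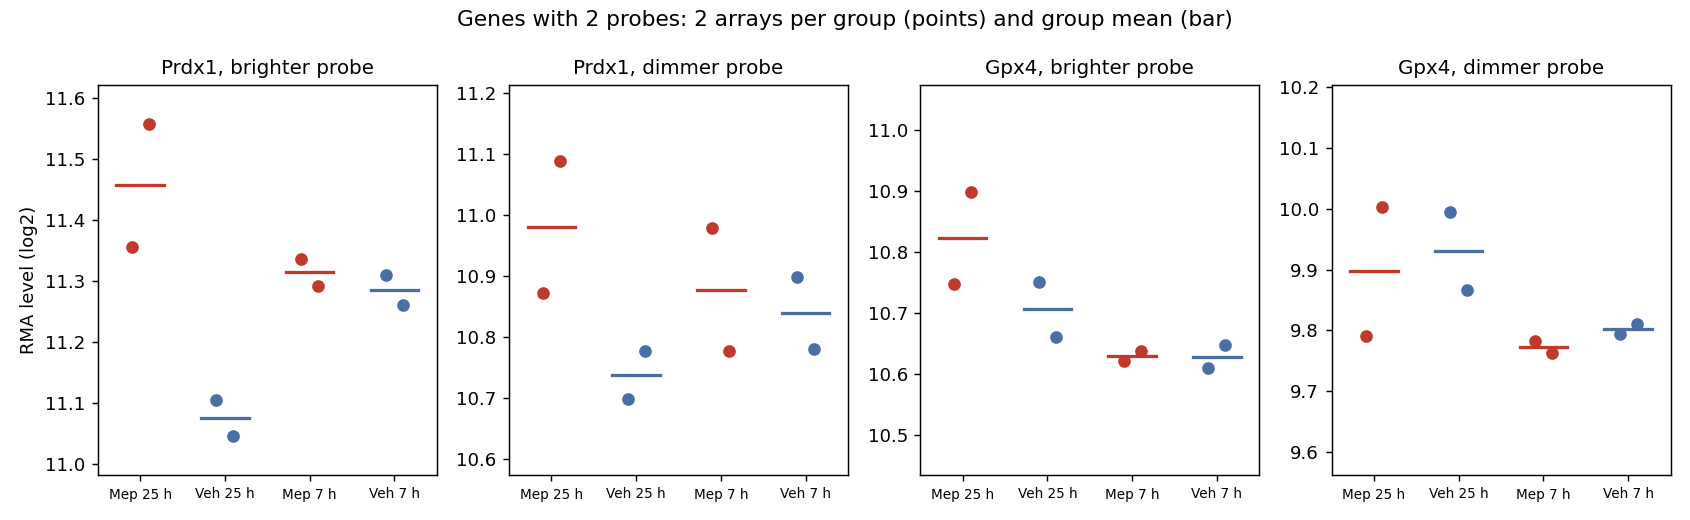
RMA level (log2, vertical axis) of both probes of Prdx1 and of Gpx4 in each array, by group along the horizontal axis (red mepenzolate, blue vehicle, bars are group means). At 25 h both Prdx1 probes are higher after mepenzolate than after vehicle, by 0.38 and 0.24, whereas the Gpx4 probes differ in sign, at 0.12 and -0.03.

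At 7 h, the earlier time, 0 of the 8 enzymes passed and 0 had an unadjusted p under 0.05, against 0% and 357 of all 14953 genes (limma). Of the differences 4 were positive and 4 negative, with a median of -0.01 for the members and -0.01 for all genes. Arrays overlapped for all 8 members, while 8.26% of all genes were higher and 15.5% lower without overlap. The 95% intervals at 7 h reached from -0.28 (Cat) to 0.34 (Sod3) at their widest. Averaged over both times 0 members passed (0% of all genes, with 563 genes and 1 member at an unadjusted limma p under 0.05), and 0 stood apart without overlap, against 0.602% of genes higher and 1.81% lower. Prdx1 had the largest averaged difference, 0.21 ± 0.06, with an unadjusted limma p of 0.0113, an adjusted limma p of 0.999 and an exact two-sided permutation p of 0.0571. The smallest such p with 4 arrays against 4 is 0.0286, and 16 such tests were made over the members. Since the 2 single-time comparisons make up the averaged one, their values share all arrays.

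**Figure D3:**
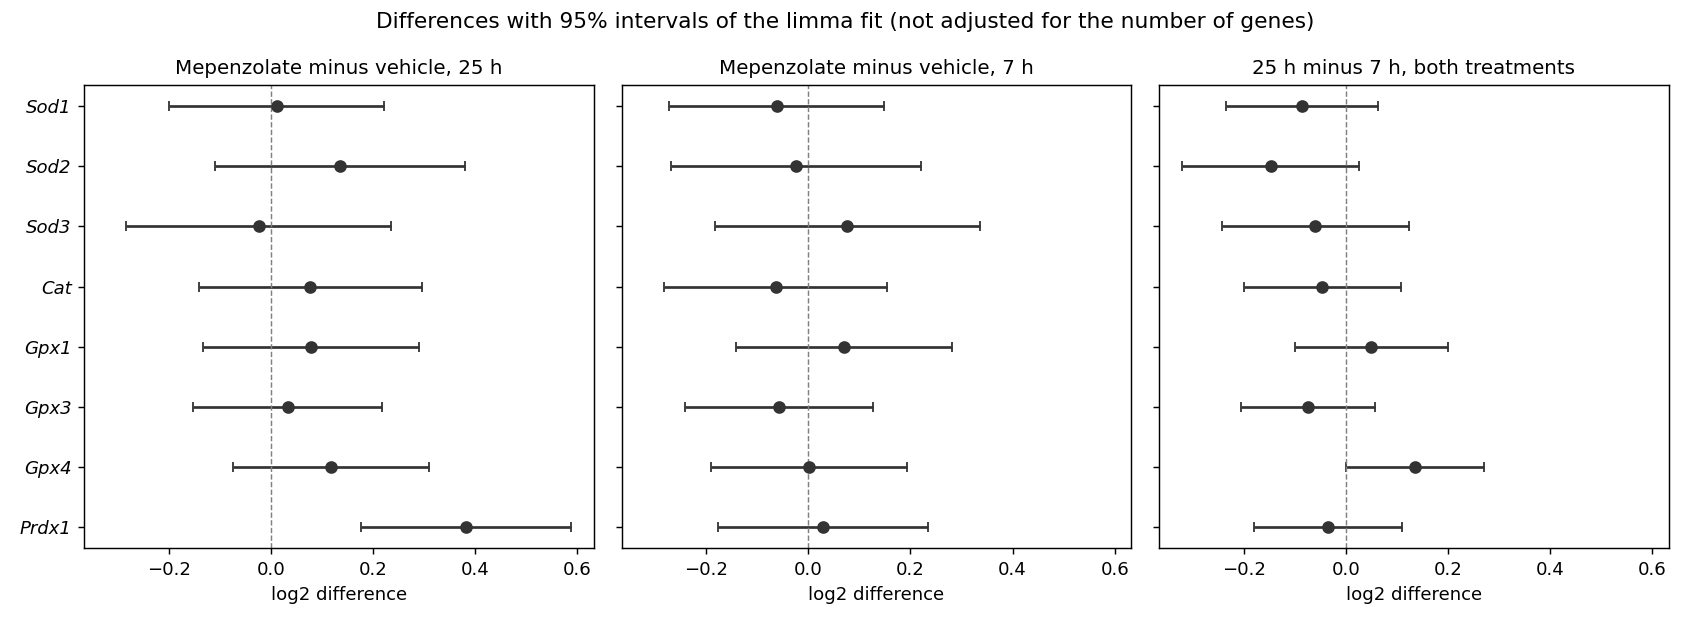
Log2 difference (horizontal axis) of each enzyme (vertical axis) for mepenzolate minus vehicle at 25 h, at 7 h, and for 25 h minus 7 h over both treatments. Points are limma estimates and lines their 95% intervals, not adjusted for the number of genes. In the panels on mepenzolate, Prdx1 at 25 h (0.38) is the estimate whose interval excludes 0, and Gpx4 over time (0.14) has an interval that just reaches it.

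Lungs taken at 25 h were also set against those taken at 7 h, over both treatments. The labels give no hour of day, so time since dosing and hour of day cannot be told apart. Of all genes tested 33 passed (0.221%), 6 higher and 27 lower at 25 h, and 0 of the 8 enzymes did (limma, smallest member adjusted p = 0.556). At an unadjusted p under 0.05 there were 1342 genes and 0 members. Gpx4 was the 1 member without overlap, higher at 25 h, while 2.55% of all genes were higher and 4.15% lower without overlap. Its 4 arrays at 25 h (10.66 to 10.90) lay above its 4 arrays at 7 h (10.61 to 10.65). The difference was 0.14 ± 0.06 with an exact two-sided permutation p of 0.0286, the smallest that the design can give, and an adjusted limma p of 0.556. The dimmer Gpx4 probe gave 0.13 ± 0.07 (limma adjusted p = 0.661), and its lowest 25 h array (9.79) lay under its highest 7 h array (9.81).

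Sod2 differed in the other direction over time, by -0.15 ± 0.08 (limma adjusted p = 0.639, exact permutation p = 0.114). Its 4 arrays at 25 h were at 10.32 to 10.47, against 10.37 to 10.68 at 7 h, with the low 7 h value on the second mepenzolate array. Without that array the difference was -0.23, and without the first 7 h mepenzolate array it was -0.07. The other differences over time were -0.09 ± 0.06 for Sod1, -0.07 ± 0.06 for Gpx3, -0.06 ± 0.08 for Sod3, -0.05 ± 0.07 for Cat, 0.05 ± 0.07 for Gpx1 and -0.03 ± 0.06 for Prdx1. Over the members 2 were positive and 6 negative, with a median of -0.05 against 0.0014 for all genes. Of the markers of other cells, all 8 ciliated cell markers stood higher at 25 h (median 0.10), with the low value on the second 7 h mepenzolate array alone. Their mean there was -0.445, while the other 7 h arrays (0.006 to 0.121) lay within the range of the 25 h arrays (-0.093 to 0.227). Smooth muscle markers were higher in 1 of 8 cases (median -0.09), with array means of -0.190 to 0.113 at 25 h and -0.048 to 0.145 at 7 h, which overlap. The part of these markers was not tested.

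The enzymes work with a wider set of genes that supply thioredoxin, glutathione and selenium or handle peroxide otherwise. Of 42 such genes all 42 had a probe and 39 were tested, and 0 passed limma in any of the 5 comparisons (adjusted p under 0.05). At an unadjusted p under 0.05 there were 1 at 25 h and 4 over time, beside 4.01% and 8.97% of all genes tested, and 0 in the other 3 comparisons. At 25 h 19 stood higher and 20 lower in mepenzolate lungs, and at 7 h 12 stood higher and 27 lower, with medians of -0.0086 and -0.04. Of all genes tested 41.3% at 25 h and 43.6% at 7 h were positive, with medians of -0.023 and -0.013. At 25 h Gpx7, a peroxidase of the endoplasmic reticulum, was the 1 gene of the 39 with an unadjusted p under 0.05. It read 6.87 and 6.81 in mepenzolate lungs and 7.18 and 7.03 in vehicle lungs (-0.27 ± 0.09, limma adjusted p = 0.979). Arrays did not overlap for 7 of the 39 genes higher and 5 lower at 25 h, beside 14.2% and 22.4% of all genes tested, and the 2 with the smallest p in each direction are named here. Txnrd1, the cytosolic thioredoxin reductase, read 8.18 and 8.41 in mepenzolate lungs and 8.16 and 8.04 in vehicle lungs (0.19 ± 0.11). Prdx3, the mitochondrial peroxiredoxin, stood at 0.15 ± 0.11, and Pxdn, peroxidasin of the matrix, at -0.10 ± 0.09.

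At 7 h 2 of the 39 were higher and 8 lower without overlap, beside 8.26% and 15.5% of all genes tested. Srxn1, sulfiredoxin, which restores overoxidised peroxiredoxins such as Prdx1, read 7.89 and 7.88 in mepenzolate lungs and 8.06 and 8.04 in vehicle lungs (-0.16 ± 0.08, limma adjusted p = 1). Msrb2, a mitochondrial methionine sulfoxide reductase, stood at -0.22 ± 0.12, lactoperoxidase (Lpo) at 0.17 ± 0.10 and glutaredoxin (Glrx) at 0.14 ± 0.10. The arrays of Lpo and Glrx were higher and those of Srxn1 and Msrb2 lower after mepenzolate without overlap. Over time 1 of the 39 was higher and 1 lower at 25 h without overlap, beside 2.55% and 4.15% of all genes tested. Sesn2, sestrin 2, a stress-induced regulator that also acts on peroxiredoxin recovery, had 7.13 to 7.39 at 25 h and 7.47 to 7.64 at 7 h (-0.26 ± 0.07, limma adjusted p = 0.230). Txnrd2, the mitochondrial thioredoxin reductase, stood at 0.10 ± 0.05 (limma adjusted p = 0.627).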

How the data were processed

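Lung RNA on 8 Affymetrix arrays (4 groups, 2 arrays each) was analysed from the authors' deposited log2 values for 34760 probes. They were made with RMA per the submitters' processing notes, whose version is not given in the sources used here. This method corrects background, brings the arrays to 1 intensity distribution and pools a transcript's probes, so that differences of dim genes come out too small. Precision is limited by the number of arrays. Probes were named from the platform annotation: 21640 had 1 gene symbol, 1321 several and 11799 none here. RefSeq (GRCm38.p6) held the Entrez identifier of 21553 of the first kind and lacked 87, with 0 symbols changed. The brightest probe of each gene gave 19937 genes, and the dimmest 25% of these (mean under log2 5.93) were left out, which left 14953 to test.

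One limma 3.58.1 fit (R 4.3.3) held a mean per group for all 8 arrays (4 residual and 4.09 prior degrees of freedom). P-values of the 5 comparisons were adjusted over the whole set of tested genes (Benjamini-Hochberg). Exact permutation tests used scipy 1.17.1. The fit was run on simulated data with added changes larger than any member difference here, so that run does not bear on differences of this size. The alternatives were array weights, the mean of probes, median centring, quantile normalization, a stricter filter (dimmest 50% left out) or none, an intensity trend with robust estimation, a replicate block, the compared groups only, each array left out, and the other probe of Gpx4 and Prdx1, which was chosen after seeing the data. Named are all members and, of 42 related genes, those passing or otherwise the 2 smallest p-values per direction without overlap. The members and lists were chosen with earlier results of these data known. Erythroid markers had 2 of 8 tested genes. Alveolar type 1 and 2, fibroblast, neutrophil and cardiac lists were summed as well, and their values overlapped between the 25 h groups.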

Additional observations from a re-analysis of the deposited data

Results flagged for a closer look

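Txnrd2 had both mepenzolate arrays above both vehicle arrays at 25 h and below them at 7 h, by small margins. It read 6.880 and 6.912 in mepenzolate lungs and 6.854 and 6.874 in vehicle lungs at 25 h, and 6.773 and 6.736 in mepenzolate lungs and 6.808 and 6.799 in vehicle lungs at 7 h. The differences were 0.03 ± 0.07 and -0.05 ± 0.07 (limma adjusted p = 0.983 and 1). Neither passed, nor did the difference between them (0.08 ± 0.10, limma adjusted p = 1.00).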

How the results depend on the processing

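None of the 40 member differences passed limma under any alternative (346 values), nor with an array left out (320 values). Of all genes tested, 0 passed for mepenzolate at 25 h, at 7 h, over both times and for the difference between times. The exceptions were 1 gene at 25 h with the replicate block, and 0 to 1 genes at 25 h and 0 to 2 in the other 3 with an array left out. For 25 h against 7 h 33 genes passed, against 73 with the replicate block, 72 with the stricter filter, 123 with an intensity trend and robust estimation, and 11 to 34 with an array left out. In the main fit the replicate numbers were taken only as names. The deviations of same-numbered arrays correlated at -0.046 to 0.41 over 6 pairs, 3 of them over 0.1. By these same values 3 of 4 arrays correlated best with their own number. That count adds nothing to the correlations, since the 2 arrays of a group deviate as mirror images. What same-numbered arrays may share was not tested. The block moved no member across the threshold.

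The Prdx1 difference at 25 h ran from 0.24 with the other probe to 0.48 without the first mepenzolate array. Signs turned in 11 of the 346 values and 30 of the 320. Quantile normalization gave -0.013 for Sod1 at 25 h, -0.0055 for Gpx4 at 7 h and -0.0045 for Gpx1 in the difference between times. Median centring gave 0.0033 for Sod3 at 25 h and -0.0046 for Gpx4 at 7 h, and the mean of probes gave -0.0145 for Gpx4 at 7 h. The other Gpx4 probe gave -0.033 at 25 h, -0.030 at 7 h, -0.032 over both times and -0.0026 for the difference between them, and the other Prdx1 probe 0.00086 over time.

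Leaving out an array turned signs within these ranges. At 25 h they were -0.039 to 0.061 for Sod1, -0.18 to 0.13 for Sod3, -0.038 to 0.19 for Cat, -0.014 to 0.17 for Gpx1 and -0.016 to 0.081 for Gpx3. At 7 h they were -0.165 to 0.041 for Sod1, -0.18 to 0.13 for Sod2 and -0.018 to 0.020 for Gpx4. Over both times they were -0.077 to 0.026 for Sod1, -0.024 to 0.13 for Sod2, -0.051 to 0.10 for Sod3, -0.051 to 0.064 for Cat and -0.038 to 0.0125 for Gpx3. For the difference between times they were -0.030 to 0.175 for Sod1, -0.255 to 0.054 for Sod3 and -0.084 to 0.10 for Gpx1. For 25 h against 7 h they were -0.14 to 0.018 for Sod3, -0.10 to 0.012 for Cat and -0.084 to 0.0165 for Prdx1. The cause was not tested. With an array left out, its group's lone array is assumed to vary like the others.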
